A study of Mus musculus with 90 samples.

Results

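Within the CA1 field of the hippocampus, areas labelled p16 high were compared with areas labelled p16 low from the same mouse. An area of interest (AOI) in the GeoMx Digital Spatial Profiler is a chosen patch of a tissue section from which light releases the barcodes of gene probes for sequencing. The comparison used every mouse with both labels in CA1, which gave 16 of the 90 AOIs of the series: 8 labelled p16 high and 8 labelled p16 low, in 8 mice. Of these mice, 4 belonged to the chronic social stress group (CSS; 1152, 1157, 1162 and 1163) and 4 were control mice (ctrl; 1151, 1168, 1175 and 1182). Sections of 5 µm came from formalin-fixed, paraffin-embedded tissue and were hybridised with the mouse Whole Transcriptome Atlas probe set. The labels give no strain, sex, age or length of stress, and the sources used here do not say how an AOI received its p16 label. A further 2 CA1 AOIs, of CSS mice 1169 and 1170, lacked a partner of the other label and were left out. Each AOI is a patch of tissue that holds many cells of several types.

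The protein p16 is an inhibitor of cyclin-dependent kinases 4 and 6 that holds the retinoblastoma protein in its growth-blocking state, and its accumulation is a widely used mark of cellular senescence. It is encoded by Cdkn2a, which also encodes a second protein, p19Arf, from a separate first exon and another reading frame. CA1 is the output field of the hippocampal circuit, and its pyramidal neurons receive input from CA3 and from the entorhinal cortex. Pyramidal neurons of CA1 differ by position, both in depth within the cell layer and along the axis from CA3 towards the subiculum.

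Because Cdkn2a has 2 separate starts, a value for the gene does not by itself say which product was measured, and the deposited table holds 1 row for it. Both promoters lie on the minus strand of chromosome 4 (RefSeq, GRCm38.p6, which is mm10; the gene spans 89274473 to 89294619). They are shown with the promoters of Fezf2, the gene with the largest called difference, and of Chgb, the called gene whose promoter held a cyclic AMP response element. The Fezf2 stretch lies inside the span of its gene (12338992 to 12346803), downstream of the 5′ end. Each stretch has 300 bases and is written 5′ to 3′. Capitals mark GC boxes (GGGCGG, either strand) and the cyclic AMP response element (TGACGTCA).
Cdkn2a, upstream start (p19Arf), chr4:89294570-89294869, minus strand: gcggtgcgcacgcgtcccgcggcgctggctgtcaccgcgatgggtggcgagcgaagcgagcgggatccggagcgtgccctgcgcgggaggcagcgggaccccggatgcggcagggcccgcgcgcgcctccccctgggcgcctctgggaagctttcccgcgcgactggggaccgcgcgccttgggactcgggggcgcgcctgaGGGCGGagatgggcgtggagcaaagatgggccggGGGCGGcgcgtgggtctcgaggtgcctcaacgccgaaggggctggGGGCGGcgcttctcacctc
Cdkn2a, downstream start (p16), chr4:89282143-89282442, minus strand: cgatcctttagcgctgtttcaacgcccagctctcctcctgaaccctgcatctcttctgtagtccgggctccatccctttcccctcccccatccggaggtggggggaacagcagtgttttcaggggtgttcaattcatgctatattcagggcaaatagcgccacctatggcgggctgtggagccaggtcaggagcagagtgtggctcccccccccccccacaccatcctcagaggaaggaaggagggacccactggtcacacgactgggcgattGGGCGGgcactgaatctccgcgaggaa
Fezf2, chr14:12345816-12346115, minus strand: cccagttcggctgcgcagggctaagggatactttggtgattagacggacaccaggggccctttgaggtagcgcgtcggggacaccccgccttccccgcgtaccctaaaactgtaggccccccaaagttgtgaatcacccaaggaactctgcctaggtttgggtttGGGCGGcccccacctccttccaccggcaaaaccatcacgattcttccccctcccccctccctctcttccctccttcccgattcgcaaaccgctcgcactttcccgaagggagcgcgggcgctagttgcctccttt
Chgb, chr2:132781392-132781691, plus strand: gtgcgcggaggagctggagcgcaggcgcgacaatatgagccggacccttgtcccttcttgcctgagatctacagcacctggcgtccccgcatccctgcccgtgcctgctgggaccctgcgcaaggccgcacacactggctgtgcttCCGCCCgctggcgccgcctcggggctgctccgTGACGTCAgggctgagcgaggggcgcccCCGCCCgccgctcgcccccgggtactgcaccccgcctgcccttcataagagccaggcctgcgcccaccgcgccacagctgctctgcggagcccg
The upstream Cdkn2a promoter held 3 GC boxes and the downstream one held 1. RefSeq promoters were at hand for 12 of the 18 genes called below. A GC box was in the promoter of 7 of these 12 genes, against 38.2% of 27025 genes with a promoter. The cyclic AMP response element was in 1 of 12, against 2.03% of genes. The E-box CACGTG was in 0 of 12, against 8.09%. The marked stretches do not overlap, and a match describes these letters alone.

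Each value is a probe signal, scaled by the authors so that the median gene of every AOI has 22.067. The difference of a gene is that of log2(signal + 1), p16 high minus p16 low. A gene was called when limma, with the mouse as a block, gave a Benjamini-Hochberg adjusted p under 0.05 over all 19962 genes. An SE beside a limma difference is moderated, which draws the variance of a gene towards that of other genes. It is therefore not the spread over mice alone. Recovered counts ran from 243610 to 832054 per AOI, and the median gene had 6 to 23 counts. Total counts were 588540 ± 197895 in high AOIs and 596598 ± 186985 in low AOIs (mean ± SD, n = 8, exact 2-sided sign-flip p = 0.875). The gene median stood 1.38 to 2.05 times over the negative control probe, and was higher in the high AOI in 6 of 8 mice (mean log2 difference 0.10 ± 0.11 SD, exact 2-sided sign-flip p = 0.0469, against a smallest possible p of 0.00781). The 75th percentile of the signal was higher in the high AOI in 8 of 8 mice (0.12 ± 0.08, exact sign-flip p = 0.00781, the smallest these pairs allow). In these 16 AOIs 17.1% to 25.1% of genes lay at or below the negative probe. CA1 identity was clear: the summed signal of 14 CA1 pyramidal markers ran from 2141 to 5375 in the 16 AOIs, against 335 to 804 in the 18 CA3 AOIs and 443 to 828.9 in 38 cortical AOIs. Markers of CA3 were low (246 to 350, against 1072 to 2897 in CA3 AOIs). The other lists overlapped the other subregions. Dentate granule markers had 114 to 184, against 161.8 to 319.4 in CA3 and 165.5 to 290.5 in cortical AOIs. CA2 markers had 408.8 to 613.1, against 324.7 to 2856.6 in CA3 and 431.6 to 894.7 in cortical AOIs.

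Cdkn2a itself was not detectably higher in the AOIs labelled p16 high. Its signal ran from 13.9 over a median of 22.1 to 26.1 in high AOIs and from 8.28 over 20.6 to 30.9 in low AOIs, which is close to the negative probe (1.55 times on average). It was higher in the high AOI in 5 of 8 mice and lower in ctrl 1151, ctrl 1168 and CSS 1157. The difference was 0.18 (SE 0.23, limma adjusted p = 0.818). Without ctrl mouse 1182, in which it rose from 8.3 to 25.2, the difference was -0.01. In that mouse a signal of 22.067 stood for only 8 recovered counts in the low and 7 in the high AOI. By edgeR, a test on the recovered counts, the Cdkn2a difference over 8 mice was -0.05. The label p16 high is therefore used below as the submitters' label and not as a measured RNA level. Cdkn2b, the neighbouring gene for the inhibitor p15, differed by -0.22 (SE 0.21, adjusted p = 0.732) and was lower in the high AOI in 6 of 8 mice. Cdkn1a, which encodes p21, the inhibitor induced by p53, was lower in the high AOI in 8 of 8 mice. Its signal was 17.8 ± 5.47 in high and 22.5 ± 4.78 in low AOIs, and the difference of -0.36 (SE 0.21, adjusted p = 0.519) did not pass. All 3 genes stood at 1.48 to 1.55 times the negative probe.

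**Figure D1:**
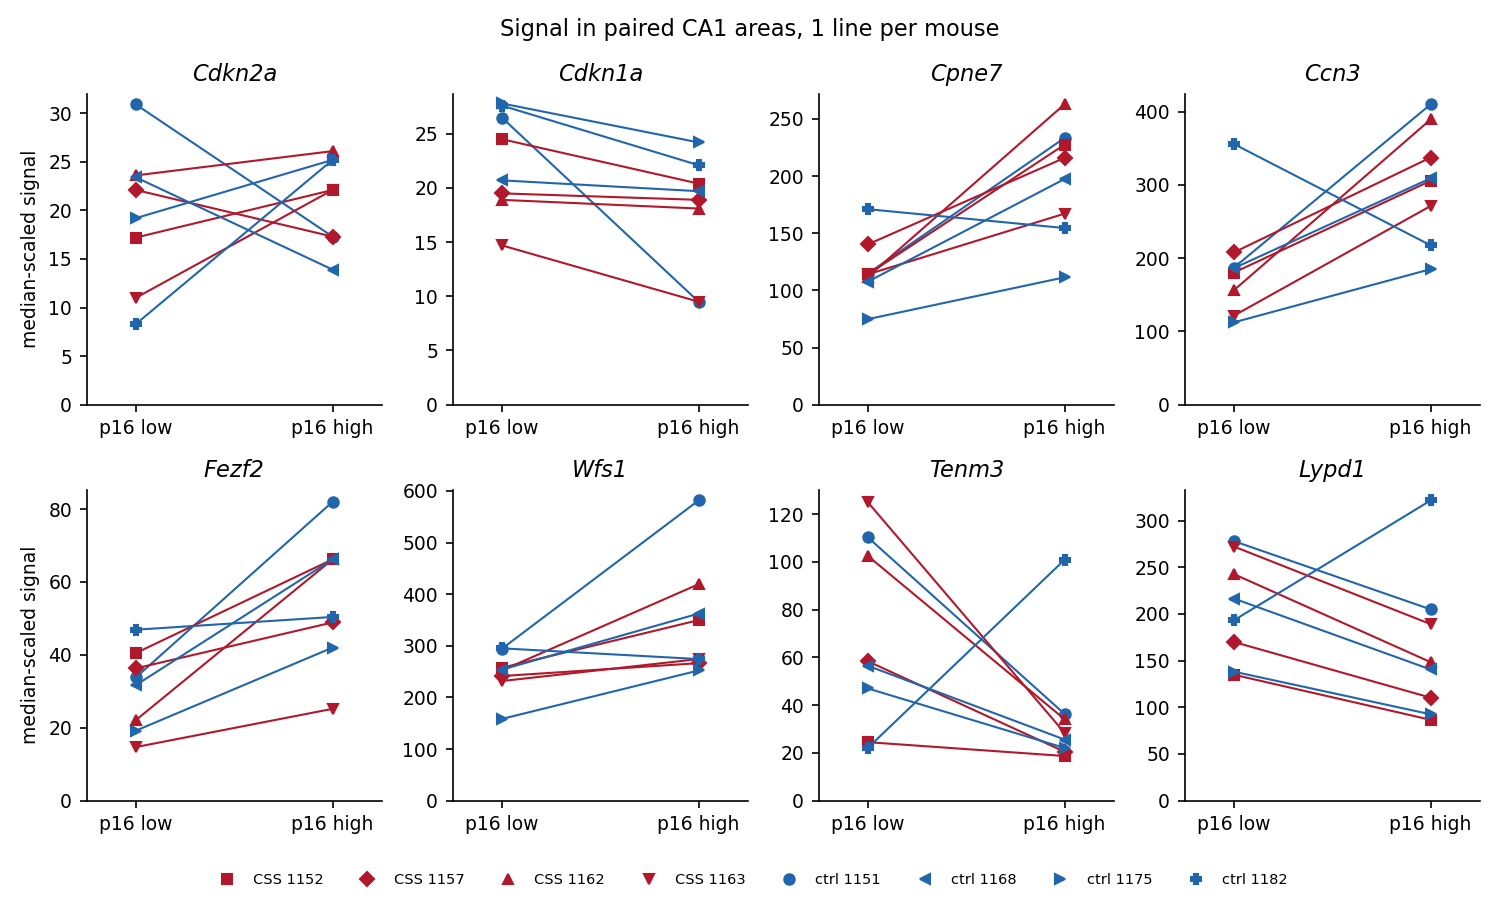
Median-scaled signal of 8 genes in the p16 low and p16 high CA1 AOI of each mouse, with 1 line per mouse, red for CSS and blue for ctrl; each vertical axis starts at 0. Cdkn2a lines cross, Cdkn1a falls in all 8 mice without passing the test, and ctrl mouse 1182 runs against the other 7 mice in Cpne7, Ccn3, Wfs1, Tenm3 and Lypd1.

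The genes that were higher in the p16 high AOIs included the CA1 pyramidal markers Ccn3, Wfs1 and Spink8 and the excitatory neuron markers Gria2 and Nptx1. At an adjusted p under 0.05, 18 of 19962 genes were called, which is 0.0902% of genes, and all 18 were higher. No gene was called lower by limma, although 499 genes were lower and 1849 higher at an unadjusted p under 0.05. Called differences ran from 0.22 to 0.86 on the log2 scale with a median of 0.44. For each of the 17 called genes described here the range of the 8 high AOIs overlapped that of the 8 low AOIs, so no such gene separated the labels as groups. For 11 of the 18 genes the high AOI was above the low AOI in 8 of 8 mice, and for the other 7 genes in 7 of 8. Among all genes, 2.01% were higher in every mouse and 0.401% lower in every mouse.

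Cpne7, a copine that binds phospholipid membranes when calcium rises, gave the smallest p. On chromosome 8 (123117313 to 123135185), it ran from 111 over a median of 207 to 263 in high AOIs and from 74.8 over 114 to 171 in low AOIs. It was higher in 7 of 8 mice, by 0.71 (SE 0.11, limma adjusted p = 0.00103). Ctrl mouse 1182 was the exception, at 154.5 in the high and 171.0 in the low AOI. Other copines are membrane-binding proteins of the same family, and 7 of 9 measured copines lay above 0, with Cpne7 the only one called. Cpne6 differed by 0.25 (adjusted p = 0.139) and Cpne8 by 0.24 (adjusted p = 0.408).

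Ccn3, a secreted matricellular protein used as a CA1 marker (chromosome 15, 54745910 to 54753762), ran from 185 over 307 to 410 in high AOIs and from 112 over 183 to 356 in low AOIs. The 7 mice other than 1182 had differences of 0.70 to 1.31. In mouse 1182 the signal was 217.5 in the high and 355.8 in the low AOI, a difference of -0.71. Over 8 mice the difference was 0.72 (SE 0.12, adjusted p = 0.00356), and without mouse 1182 it was 0.93. That moderated SE, on which the p rests, is smaller than the spread of the 8 mouse differences alone would give. The same holds for Ptn and Tenm3 below. Wfs1, the endoplasmic reticulum protein wolframin and a classical CA1 marker (chromosome 5, 36966104 to 36988982), was 348 ± 111 in high and 248 ± 42.9 in low AOIs, a difference of 0.45 (SE 0.09, adjusted p = 0.0170). The highest value, 582, was the high AOI of ctrl mouse 1151. Spink8, a protease inhibitor of the Kazal type and a further CA1 marker, differed by 0.51 (SE 0.11, adjusted p = 0.0461), with the high AOI above the low one in every mouse and nearly level in ctrl mice 1175 (69.4 against 68.1) and 1182 (141.9 against 137.9).

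Fezf2, a zinc finger transcription factor of deep-layer projection neurons (chromosome 14, 12338992 to 12346803), had the largest called difference. Its signal was low, from 25.2 over 58.3 to 82.0 in high AOIs and from 14.7 over 32.8 to 46.9 in low AOIs. The high AOI was above the low AOI in 8 of 8 mice, by 0.86 (SE 0.16, adjusted p = 0.00778). It was the only called gene outside the highest quartile of signal, at 3.36 times the negative probe.

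Several further called genes are known from the synapse or from calcium signalling. Septin5, a septin on synaptic vesicles and the presynaptic membrane, was 287 ± 58.3 in high and 206 ± 38.0 in low AOIs (difference 0.47, SE 0.08, adjusted p = 0.00560). Ppp3r1, the regulatory subunit of the calcium-dependent phosphatase calcineurin, was 1537 ± 438 against 1203 ± 266 (difference 0.34, adjusted p = 0.00560). Cacna1e, the pore of the R-type calcium channel, was 440 ± 109 against 326 ± 69.9 (0.42, adjusted p = 0.00598). These 3 genes were higher in the high AOI in 8 of 8 mice. Dgki, a kinase that clears the lipid messenger diacylglycerol, differed by 0.47 (adjusted p = 0.0112), again in 8 of 8 mice. Ncdn, the neuronal protein neurochondrin, differed by 0.27 (adjusted p = 0.0289) and Nptx1, a secreted pentraxin that clusters AMPA receptors, by 0.41 (adjusted p = 0.0373, 7 of 8 mice). Gria2, the AMPA receptor subunit that limits calcium entry, differed by 0.29 (adjusted p = 0.0482). Its ranges of 474 to 1034 and 394 to 777 overlapped widely, yet the high AOI was above the low one in 8 of 8 mice, in ctrl mouse 1168 by 0.01 alone. Cab39, a scaffold of the kinase LKB1, differed by 0.39 (adjusted p = 0.0373). Chic2, the called gene with the highest signal at 4916 ± 1225 against 4210 ± 979, differed by 0.22 (adjusted p = 0.0461), again in every mouse.

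A further 3 called genes fell outside the naming rule and were singled out after their values were seen. Ptn, the heparin-binding growth factor pleiotrophin, was 395 ± 84.2 in high and 262 ± 93.0 in low AOIs (0.62, SE 0.10, adjusted p = 0.00356). Adgrl2, the adhesion receptor latrophilin-2 of CA1 dendrites, was 110 ± 18.7 against 67.2 ± 26.4 (0.78, SE 0.14, adjusted p = 0.00560). Both were higher in 7 of 8 mice, the exception being ctrl mouse 1182. Chgb, the secretory granule protein chromogranin B, differed by 0.35 (adjusted p = 0.0461) and was lower in CSS mouse 1157 by 0.02.

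**Figure D2:**
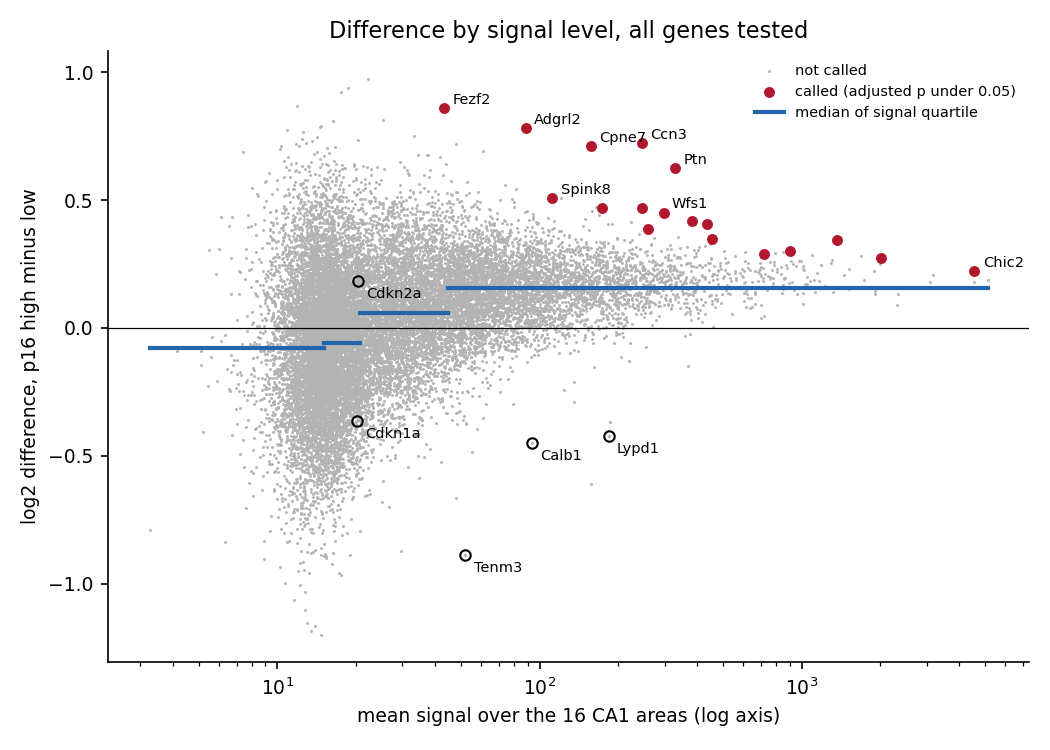
Log2 difference (p16 high minus p16 low, log2(signal + 1)) of each of 19962 genes against its mean signal over the 16 CA1 AOIs on a log axis; red points are the 18 called genes and blue bars the median of each quartile of signal. The median rises from -0.08 in the lowest to 0.16 in the highest quartile, and 17 of the 18 called genes lie in the highest.

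The differences depended on how bright a gene was. The median of all genes was 0.05, and 57.6% of genes lay above 0 and 42.4% below. From the lowest to the highest quartile of signal the median was -0.08, -0.06, 0.06 and 0.16, and the percentage of genes above 0 was 39%, 41%, 61.8% and 88.6%. Called genes therefore stood on a background in which nearly all bright genes were above 0. Scaling each AOI to its 75th percentile moved the median of all genes from 0.05 to -0.06. With that scaling 8 genes were called higher and 2 lower, and with quantile normalization, which gives every AOI one distribution, 5 higher and 6 lower. Fezf2, Adgrl2, Cpne7, Ccn3 and Ptn were the 5 called higher there, and the 17 called genes described here kept their direction under every alternative fitted. With the ratio of the gene median to the negative probe as a covariate, limma called 0 genes (1782 at an unadjusted p under 0.05). What part the signal over background has in the 18 differences was not tested further.

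Mouse 1182 stood apart from the other 7 mice. It had the lowest difference of the 8 mice for 12 of the 18 called genes, a median of 0.05 over them where the other mice had 0.28 to 0.74, and 12 of 18 above 0 where the others had 17 or 18. Without it 107 genes were called, 98 higher and 9 lower, among them all 18. Leaving out 1162 left 1 called gene (Cpne7), 1168 left 5, 1151 left 9, 1163 left 10, and 1152 or 1175 left 11 each. Leaving out 1157 gave 19, of which 13 were among the 18. Cpne7 was called without any 1 of the 8 mice, and Ccn3 and Ptn in all but the fit without 1162.

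**Figure D3:**
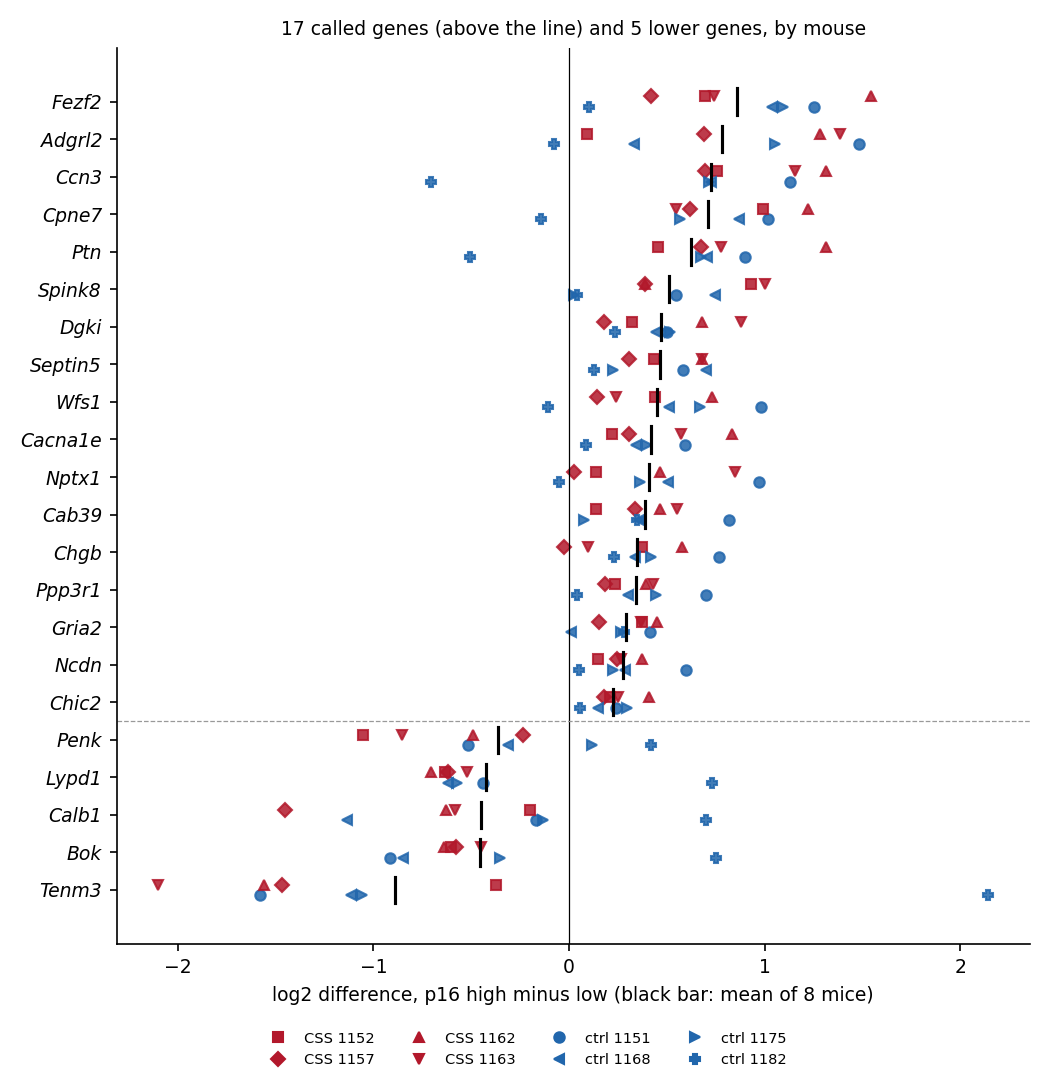
Log2 difference in each of the 8 mice for 17 of the 18 called genes and, below the dashed line, for Penk, Lypd1, Calb1, Bok and Tenm3, which limma did not call over the 8 mice; red is CSS, blue ctrl, and the black bar is the mean. The cross of ctrl mouse 1182 lies lowest in 12 of the 17 upper rows and highest in the 5 lower rows.

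No gene was called lower by limma over the 8 mice, but edgeR on the recovered counts called 22 lower (0.11% of genes) and 81 higher (0.406%), including all 18. DESeq2 called 84 higher and 0 lower. Tenm3 encodes teneurin-3, an adhesion protein of hippocampal wiring that is found in proximal CA1. Its signal ran from 18.7 over 27.0 to 100.9 in high AOIs and from 22.1 over 57.5 to 125 in low AOIs. It was lower in the high AOI in 7 mice, by 0.38 to 2.10, and higher in mouse 1182 by 2.14. The limma difference was -0.89 (SE 0.24, adjusted p = 0.0939), and the edgeR difference was -1.12 (adjusted p = 4.38e-07). Lypd1, a Ly6 protein that modulates nicotinic receptors, was likewise lower in 7 mice, by 0.44 to 0.71, and higher in mouse 1182 by 0.73 (limma -0.42, adjusted p = 0.0740; edgeR -0.50, adjusted p = 0.000100). Without mouse 1182, limma called both, at -1.32 for Tenm3 and -0.59 for Lypd1.

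Further genes with this pattern were singled out after their values were seen. Calb1, the calcium buffer calbindin, which marks superficial CA1 pyramidal neurons, was 80.7 ± 35.5 in high and 106 ± 33.9 in low AOIs, and lower in all mice but 1182 (limma -0.45, adjusted p = 0.160; edgeR adjusted p = 0.00513; -0.61 without mouse 1182). Penk, the enkephalin precursor, was lower in 6 of 8 mice, the exceptions being 1175 and 1182 (limma -0.37, adjusted p = 0.126; edgeR adjusted p = 0.0119). Bok, a protein of the Bcl-2 family on the CA3 marker list, was 30.6 ± 4.31 against 43.4 ± 10.9 and lower in 7 of 8 mice (limma -0.45, adjusted p = 0.240; edgeR adjusted p = 0.0235). All 5 genes kept their negative sign under quantile normalization and 75th percentile scaling.

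Of the 12 lowest moderated t values, Gm6958, Lypd1, LOC118568632 and Tenm3 belonged to genes in the highest quartile of signal. Gm6958, a predicted gene, was lower in the high AOI in 8 of 8 mice (39.6 ± 21.6 against 56.3 ± 19.6; -0.66, adjusted p = 0.0562). LOC118568632 was lower in 5 of 8 (-0.61, adjusted p = 0.0759). The other 8, Hepacam2, Habp2, Slc45a2, Trim34a, Olfr1097, S1pr4, Atp6v1g3 and Defa17, averaged 0.95 to 1.30 times the negative probe, and their differences of -0.90 to -1.20 had adjusted p from 0.0562 to 0.108. Their signals lie at the level of the background.

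Senescence genes as a group showed no shared direction. Of 26 genes for CDK inhibitors and cell cycle arrest, 14 were above 0 and 12 below, with 0 called and a median of 0.04, close to the 0.05 of all genes. Hmgb1, a chromatin protein that leaves the nucleus in senescent cells, differed by 0.23 (adjusted p = 0.263), E2f3, a target of the retinoblastoma protein, by 0.35 (adjusted p = 0.341), and Cdk4, a kinase that p16 inhibits, by 0.26 (adjusted p = 0.456). Of 64 secretory factors of senescent cells 27 were above 0, with 0 called and a median of -0.06, and 13 of them averaged at or below the negative probe. The chemokine Ccl2 differed by 0.43 (adjusted p = 0.489), the matrix inhibitor Timp2 by 0.32 (adjusted p = 0.425), the cytokine Mif by 0.17 (adjusted p = 0.448) and the growth factor-binding Igfbp5 by -0.54 (adjusted p = 0.360). Of 32 p53 targets and DNA damage genes 20 were above 0, with 0 called. Their median of 0.08 turned to -0.03 under quantile normalization (14 of 32 above 0). Zmat3 (0.39, adjusted p = 0.0939), Rrm2b (0.43, adjusted p = 0.187) and Ccng1 (0.21, adjusted p = 0.419), all induced by p53, were above 0 in 7 of 8 mice each. These genes lie in the highest quartile of signal, where 88.6% of all genes were above 0. Cdkn1a, itself a p53 target, was below 0 in all 8 mice and lies in the second lowest quartile, where 41% were above 0. Interferon and antigen presentation genes had 17 of 32 above 0 and a median of 0.02, with Oasl2 at 0.58 (adjusted p = 0.373) and H2-K1 at -0.53 (adjusted p = 0.423).

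Among cell type markers, CA1 pyramidal genes stood highest. Of 14 markers 12 were above 0, 3 were called (Ccn3, Wfs1 and Spink8) and the median was 0.27, against 0.16 for all genes of the highest signal quartile, where 12 of the 14 lie. Their summed signal was 2441 to 5375 in high and 2141 to 3994 in low AOIs and higher in the high AOI in 8 of 8 mice. The median stayed above 0 under quantile normalization (0.10, 9 of 14 above 0) and 75th percentile scaling (0.15, 10 of 14). Itpka, a kinase of dendritic spines on this list, differed by 0.29 (adjusted p = 0.0527). Fewer cells of a type and less RNA per cell cannot be told apart in such AOIs. Excitatory neuron markers had 13 of 16 above 0 and 2 called (Gria2 and Nptx1), with a median of 0.19 that came to 0.01 under quantile normalization. General neuron markers had 13 of 17 above 0 and 0 called. Their median of 0.13 was below that of the brightest quartile and turned to -0.05 under quantile normalization. Among them Eno2, the neuronal enolase, differed by 0.25 (adjusted p = 0.0562), Thy1 by 0.26 (adjusted p = 0.0612), Syn1 by 0.26 (adjusted p = 0.0740) and Snap25 by 0.21 (adjusted p = 0.0989, and -0.01 under quantile normalization).

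Markers of other cells were not called, and their list medians lay on both sides of 0. Inhibitory neuron markers had 6 of 20 above 0 and a median of -0.08, with mouse medians from -0.45 to 0.65. The summed signal was 859 to 1390 in high and 616 to 1484 in low AOIs. Pvalb, the parvalbumin of fast-spiking interneurons, differed by -0.49 (adjusted p = 0.228). Astrocyte markers had 7 of 20 above 0 and a median of -0.09, with a summed signal of 1050 to 1795 against 982 to 1980. Gja1, the astrocytic connexin 43, differed by -0.31 (adjusted p = 0.439) and Glul, glutamine synthetase, by -0.13 (adjusted p = 0.608, lower in 7 of 8 mice). Mural cell markers had 4 of 14 above 0, and their summed signal, 192 to 259 in high and 221 to 292 in low AOIs, was lower in the high AOI in 8 of 8 mice. These markers are dim: 0 of 14 lie in the highest quartile of signal, and 2 averaged at or below the negative probe. In the other quartiles, from the lowest up, 39%, 41% and 61.8% of all genes were above 0. Abcc9, a potassium channel subunit of pericytes, differed by -0.62 (adjusted p = 0.331) and Acta2, smooth muscle actin, by -0.60 (adjusted p = 0.361), at 0.96 and 1.20 times the negative probe. Microglia (10 of 20 above 0, median 0.02, with C1qc at -0.41, C1qa at -0.31, Gpr34 at 0.49 and Fcrls at 0.35) and endothelial markers (11 of 19, median 0.05) lay near the median of all genes. Oligodendrocyte markers had 15 of 20 above 0 and a median of 0.12 (0.08 under quantile normalization, again 15 of 20 above 0), with Olig1, a transcription factor of the lineage, at 0.38 and Aspa, which breaks down N-acetylaspartate, at -0.58 (adjusted p = 0.319). Precursors of oligodendrocytes had 4 of 10 above 0 (median -0.08) and ependymal cells 8 of 12 (median 0.10, and 0.10 under quantile normalization, as for CA1 pyramidal markers there). Markers of the neighbouring fields gave 3 of 9 above 0 for CA2 (median -0.03), 7 of 12 for CA3 (0.08) and 4 of 10 for dentate granule neurons (-0.02).

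Markers of border tissue and blood were mostly below 0, with 0 called. Of these markers, 2 of 20 for choroid plexus and 1 of 4 for red cells lie in the highest quartile of signal. In the lowest and second lowest quartiles, 39% and 41% of all genes were above 0. Choroid plexus markers had 5 of 20 above 0 and a median of -0.13, with a summed signal of 293 to 438 in high and 338 to 419 in low AOIs, and 5 of 20 averaged at or below the negative probe. Enpp2, an enzyme that makes lysophosphatidic acid and is shared with the oligodendrocyte list, differed by -0.37 (adjusted p = 0.243). All 4 measured red cell markers were below 0, with Slc4a1, the red cell anion exchanger, lower in 8 of 8 mice (-0.78, adjusted p = 0.210). Slc4a1 averaged 1.095 times the negative probe. The summed red cell signal was 50.4 to 101 in high and 63.0 to 383 in low AOIs. Hbb-b1, a beta globin with a near-identical neighbour whose reads may not be separable, was 9.5 in the high and 182 in the low AOI of mouse 1182. The part of these other cells in the called differences was not tested.

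**Figure D4:**
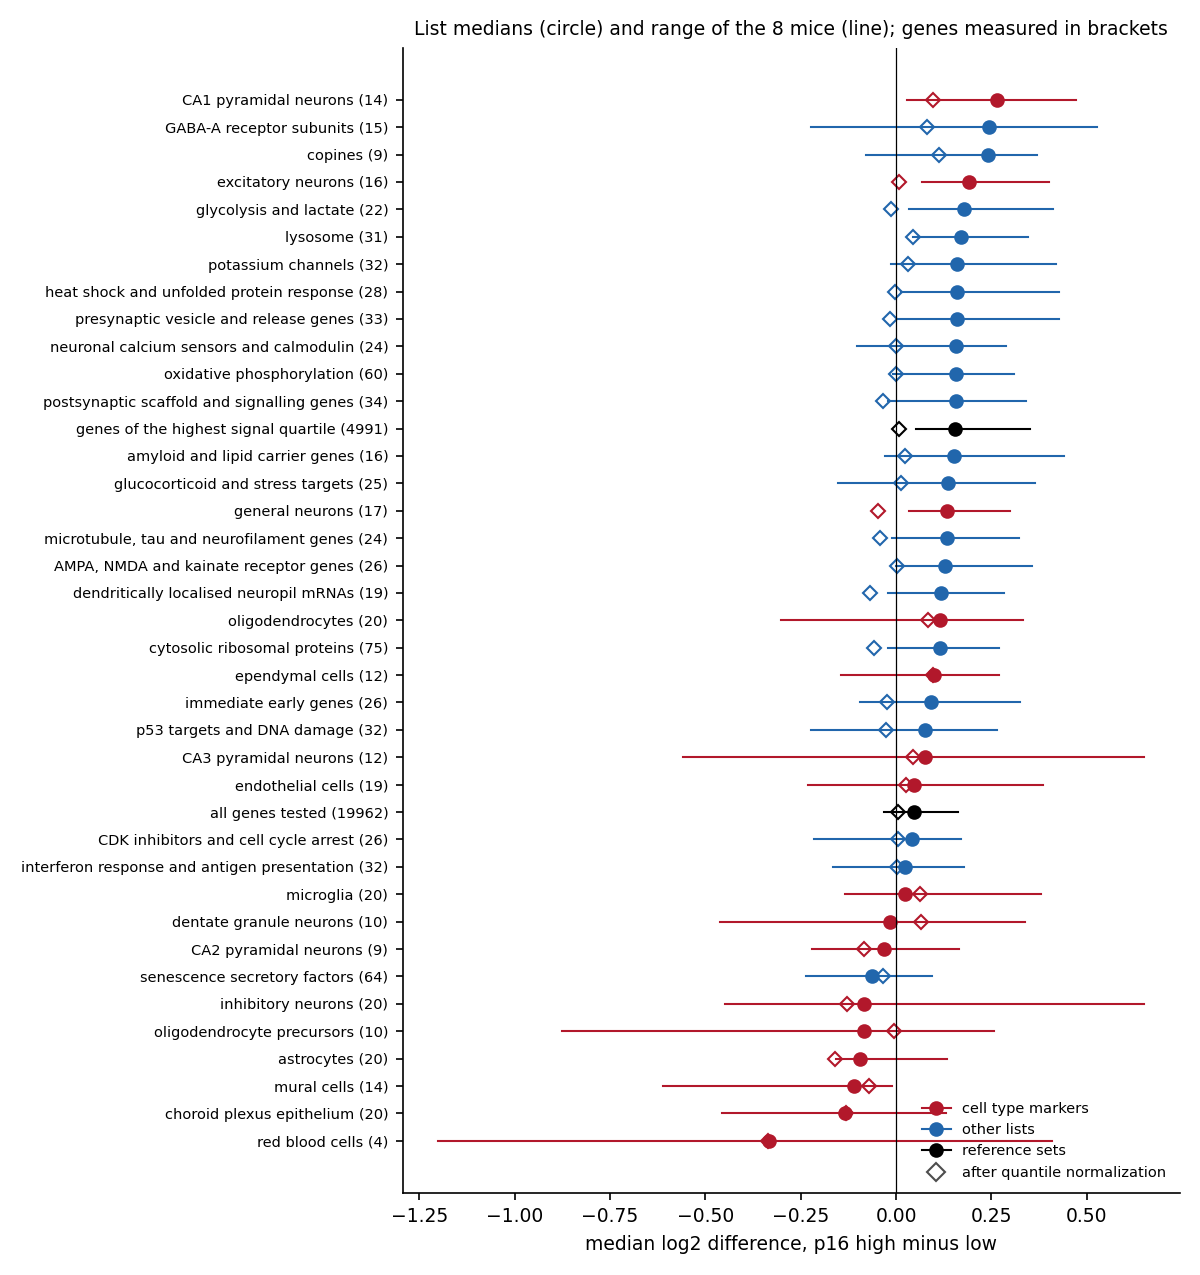
Median log2 difference (p16 high minus p16 low) of 37 gene lists and 2 reference sets, with the number of genes measured in brackets; circles are the reported medians, lines the range of the 8 mouse medians, and open diamonds the medians after quantile normalization. CA1 pyramidal markers stand highest at 0.27, and most lists of bright neuronal and housekeeping genes lie near the 0.16 of the highest signal quartile and close to 0 after quantile normalization.

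Receptors and channels of the synapse were above 0 for the most part, as bright genes were. Of 26 AMPA, NMDA and kainate receptor genes 18 were above 0 and 1 was called (Gria2). Gria1 differed by 0.25 (adjusted p = 0.0562), Gria3 by 0.34 (adjusted p = 0.0670) and Grin2a, an NMDA receptor subunit, by 0.26 (adjusted p = 0.0562). GABA-A receptor genes, which carry fast inhibition, had 12 of 15 above 0 and 0 called, with a median of 0.24 that came to 0.08 under quantile normalization. Gabrb1, a beta subunit, differed by 0.39 (adjusted p = 0.0896). Postsynaptic scaffold and signalling genes had 31 of 34 above 0 and presynaptic release genes 29 of 33. Their medians were both 0.16, that of the brightest quartile, and turned to -0.04 and -0.02 under quantile normalization. Ppp3ca, the catalytic subunit of calcineurin, differed by 0.23 (adjusted p = 0.0702) and Nsf, the vesicle fusion ATPase, by 0.23 (adjusted p = 0.124). Potassium channel genes had 26 of 32 above 0, with Kcnd2, the A-type channel of dendrites, at 0.31 (adjusted p = 0.171).

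Calcium sensors split. Of 24 genes 14 were above 0 and 0 were called. Their median of 0.16 was that of the brightest quartile and came to 0.0 under quantile normalization (12 of 24 above 0). Vsnl1, a sensor of the visinin family, differed by 0.28 (adjusted p = 0.0759) and Hpca, hippocalcin, by 0.18 (adjusted p = 0.125), each higher in 8 of 8 mice, while the buffers Calb1 and Pvalb had negative values.

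Activity and hormone genes were not called. Immediate early genes had 18 of 26 above 0 and a median of 0.09, which turned to -0.02 under quantile normalization and under 75th percentile scaling. The synaptic scaffold Homer1 differed by 0.32 (adjusted p = 0.222), the growth regulator Rheb by 0.28 (adjusted p = 0.162) and the neurotrophin Bdnf by 0.27 (adjusted p = 0.365). Glucocorticoid and stress targets had 18 of 25 above 0 and a median of 0.14, which came to 0.01 under quantile normalization, and the median was above 0 in 4 of 8 mice. At an unadjusted p under 0.05, 4 members were higher and 3 lower, the latter being the metallothionein Mt2 (-0.34), Crhbp (-0.52) and Hsd11b1 (-0.60), named after their values were seen. Nr3c2, the mineralocorticoid receptor, which is rich in the hippocampus, was 268 ± 66.9 in high and 214 ± 41.8 in low AOIs and higher in 8 of 8 mice (0.31, SE 0.08, adjusted p = 0.0819). Fkbp5, a chaperone induced by glucocorticoids, differed by 0.42 (adjusted p = 0.286) and Zbtb16 by 0.30 (adjusted p = 0.171).

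Housekeeping lists followed the brightest quartile. Oxidative phosphorylation genes had 58 of 60 above 0 and a median of 0.16, with Ndufs4 at 0.44 (adjusted p = 0.123) and Ndufa3 at 0.28 (adjusted p = 0.151). Cytosolic ribosomal proteins had 70 of 75 above 0 and a median of 0.12, with Rpl13 at 0.24 (adjusted p = 0.123) and Rps27a at 0.27 (adjusted p = 0.154). Glycolysis genes had 17 of 22 above 0, with Tpi1 at 0.32 (adjusted p = 0.0562). Heat shock genes had 25 of 28 above 0, with Hsp90ab1 at 0.25 (adjusted p = 0.0612) and Hsp90aa1 at 0.26 (adjusted p = 0.0670). These 4 medians turned negative under quantile normalization, to -0.06 for the ribosomal list and closer to 0 for the others. Lysosomal genes had 27 of 31 above 0, with Psap at 0.24 (adjusted p = 0.0963) and Atp6v0c at 0.23 (adjusted p = 0.0975). Microtubule genes had 21 of 24 above 0, with the motor Kif1a at 0.27 (adjusted p = 0.0939). All 16 amyloid and lipid carrier genes were above 0, with App at 0.22 (adjusted p = 0.0656), Aplp1 at 0.27 (adjusted p = 0.0562) and the sorting receptor Sorl1 at 0.32 (adjusted p = 0.0819), and 0 were called. Their median of 0.15 came to 0.02 under quantile normalization.

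The p16 difference was next compared between stressed and control mice, which asks whether stress alters what sets the labelled areas apart. The 18 called genes were above 0 on average in both groups, with means of 0.26 to 0.98 in CSS and 0.18 to 0.87 in ctrl mice, and the CSS mean was the larger for 10 of 18. Ccn3 had 0.98 ± 0.30 in CSS and 0.47 ± 0.81 in ctrl mice (mean ± SD, n = 4 each), a gap of 0.51 (SE 0.61). Nr3c2, not called, had 0.13 ± 0.06 against 0.49 ± 0.14, a gap of -0.37 (moderated SE 0.22). For Nr3c2 that SE is larger than the 2 SDs alone would give. Spink8 had 0.68 ± 0.34 against 0.34 ± 0.36, and Fezf2 0.85 ± 0.48 against 0.87 ± 0.52. No gene was called in limma's test of the gap (0 of 19962, 880 at an unadjusted p under 0.05, smallest adjusted p = 0.991). In simulated data with changes in CSS mice alone this test called 0 of 100 genes at a log2 change of 1. At a change of 2 it called 92 of 100. Gaps of the size seen for the 18 genes were therefore not detectable by this test with 4 mice against 4. Its variance trend followed the mean difference and not the signal, so bright genes with even values got wide SEs. How far that, beside the number of mice, limits the calls was not tested. Within the CSS mice limma called 5 genes: Ccn3, Cpne7, Ptn and Ptgds higher, and Tenm3 lower. Within the ctrl mice it called 0 (1610 at an unadjusted p under 0.05).

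Ptgds, the synthase of prostaglandin D2, which is abundant in meninges and choroid plexus, had 1.26 ± 0.61 in CSS and -0.14 ± 0.47 in ctrl mice, a gap of 1.41 (SE 0.43, adjusted p = 0.991). Tenm3 had -1.38 ± 0.72 in CSS and -0.40 ± 1.71 in ctrl mice, the wide spread coming with mouse 1182. The genes with the highest t for the gap were Cdhr3, Esp5, Zfp36l3, Fn1, St3gal6 and Mns1, at 1.01 to 1.79, and those with the lowest were Vmn1r21, Agmat, Fam122c, Gm30083, Enam and Gm39773, at -1.48 to -1.91. All 12 had mean signals under 20 and adjusted p of 0.991.

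The other subregions gave smaller p16 differences for most of these genes. Of the 18 called genes, 16 were above 0 in CA3 (6 mice, without 1163 and 1182), 11 in motor cortex (8 mice) and 14 in somatosensory cortex (7 mice), with medians of 0.26, 0.04 and 0.09. Wfs1 had 0.35 in CA3, -0.17 in motor and -0.32 in somatosensory cortex. Cpne7 averaged 1.02 in the 6 CA3 mice, and in these mice CA1 minus CA3 was -0.14 (SE 0.39, limma adjusted p = 0.98). Spink8 averaged 1.87 there, with CA1 minus CA3 at -1.36 (SE 0.71, limma adjusted p = 0.926). Adgrl2 and Nptx1 were negative in CA3 (-0.25 and -0.39). The CA1 difference exceeded the CA3 difference of the same mice for 15 of 18 genes, and that of cortex for 18 of 18. Because the genes were chosen on their CA1 values, these counts describe them and test nothing.

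Tested over all genes with limma, CA1 minus CA3 gave 0 calls (622 at an unadjusted p under 0.05, smallest adjusted p = 0.926). Adgrl2 was among the 6 highest t values, with a gap of 1.07 (SE 0.39), beside Agt, Otop1, Mybl2, Gm5414 and Adgre5 at 0.76 to 0.96. The 6 lowest were Lcn6, Slc5a9, A4gnt, Nog, B3gat2 and Gm5460, at -0.82 to -1.13. CA1 minus cortex gave 0 calls as well (830 at an unadjusted p under 0.05, smallest adjusted p = 0.834). Hmgxb3, Ndst3, Bloc1s3, Sulf2, Epha5 and Ggnbp2 had the 6 highest t values, at 0.47 to 0.59. Epha5, an ephrin receptor of hippocampal wiring, had signals of 188 in high and 152 in low CA1 AOIs. The lowest were Hbb-b1 (-1.44, SE 0.33), Atp6v1g3, Vmn1r224, Defa17, Vmn1r233 and 4931428L18Rik, the last 5 at background signal. Both tests took their variance trend from the mean gap and not from the signal, as in the comparison of stress groups. With 6 to 8 mice, the absence of calls is no evidence that the subregions are alike.

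**Figure D5:**
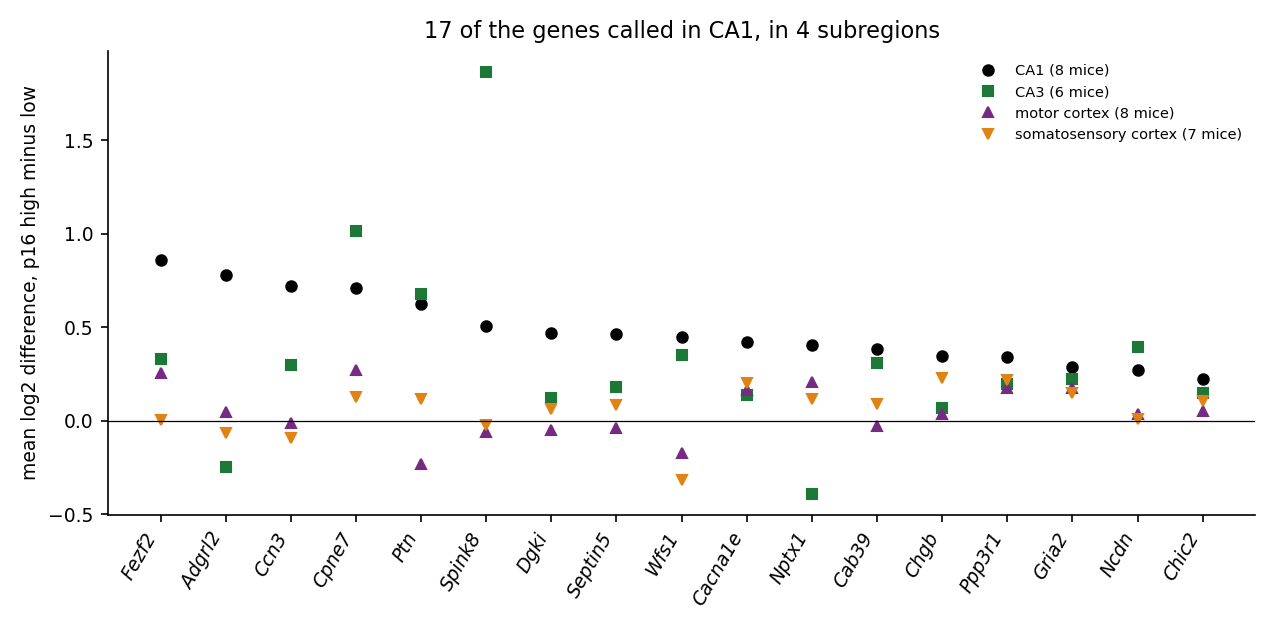
Mean log2 difference (p16 high minus p16 low) of 17 of the 18 genes called in CA1, in CA1 (8 mice), CA3 (6 mice), motor cortex (8 mice) and somatosensory cortex (7 mice), ordered by the CA1 value. All CA1 points lie between 0.22 and 0.86; Spink8 in CA3 stands at 1.87 and cortical points lie between -0.32 and 0.27.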

How the data were processed

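Signal per gene was deposited by the authors for 90 AOIs, scaled to one median per AOI (22.067), as the values themselves show. Per the submitters' processing notes, mm10 was the genome build; the sources used here do not give the read processing tools. Counts were recovered from the deposited signal by dividing by each AOI's step (at least 99.985% of values within 0.01 of a whole number; 3 genes were not whole and were rounded). Samples were grouped from the labels' titles, and both AOIs of a pair came from the same mouse, which is the pairing; deviations of paired AOIs correlated at a median of 0.07 (2 of 8 pairs above 0.1).

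log2(signal + 1) was fitted in limma 3.58.1 (R 4.3.3; lmFit, eBayes with trend, mouse as fixed block, 2-sided), all 19962 genes, Benjamini-Hochberg. Gaps between groups or subregions were fitted to each mouse's difference, with the variance trend against the mean of the fitted values and not against signal. Fold changes on this scale understate those of dim genes. Alternatives used edgeR 4.0.16 and DESeq2 1.42.0 on recovered counts, other scalings, filters, blocks and leaving out each mouse. On simulated counts for the main comparison (19962 genes), limma called 100 of 100 genes changed by 1 on the log2 scale. It called 68 of 100 genes changed by 0.5, and there was 1 false call. In the real pairs the 75th percentile of signal was higher in the high AOI in 8 of 8 mice. Whether such a shift yields false calls was not tested in the simulation. Its false call count therefore does not carry over to the genes called in the real pairs. Of 19962 genes, 19822 (99.3%) matched RefSeq GRCm38.p6 symbols; promoters are from RefSeq.

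Named genes: Cdkn2a, Cdkn2b, Cdkn1a; the 12 highest and 12 lowest differences among called genes of one sign in 8 mice, filled up by moderated t; called members and up to 4 smallest p per list; the 6 highest and 6 lowest t of each gap. A few genes that the rule names, 1 of them called, are not reported here; counts and medians include them. Members and lists were chosen with earlier results of these data known.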

Additional observations from a re-analysis of the deposited data

Results flagged for a closer look

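A mouse far from the other 7 was found in 12 of 141 sets of 8 values. The rule flags about 1 in 20 by chance in independent sets. Here some genes were picked after their values were seen and the lists share members, so the count is a description and no test. Ctrl mouse 1182 was the distant one in 7 of the 12. For Ccn3 its difference was -0.71 (others 0.70 to 1.31), for Ptn -0.51 (0.46 to 1.31) and for Luzp2, a leucine zipper protein, -1.10 (0.43 to 1.60). For Tenm3 it was 2.14 (others -2.10 to -0.38), for Lypd1 0.73 (-0.71 to -0.44) and for Bok 0.75 (-0.92 to -0.35). The median of mural cell markers was -0.61 in the same mouse (others -0.28 to -0.01).

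Ctrl mouse 1151 was distant for Cdkn1a at -1.39 (others -0.59 to -0.04), for Sorl1 at 0.85 (0.05 to 0.36), for the potassium channel median at 0.42 (-0.01 to 0.18) and for the heat shock median at 0.43 (0.01 to 0.21). CSS mouse 1163 was distant for H2-K1 at -2.22 (others -0.78 to 0.19). None of the 137 gene and list values compared had all CSS mice on one side of 0 and all ctrl mice on the other.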

How the results depend on the processing

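The count of 18 called genes moved with most settings. It was 86 with log2(signal + 10) (79 higher, 7 lower), 144 with genes above the median gene alone (140 higher, 4 lower), 11 with quantile normalization and 10 with 75th percentile scaling. It was 103 with edgeR, 116 with edgeR after filterByExpr, 67 with edgeR without mouse 1175 (chosen after seeing the data, since the lowest count recovered in its low AOI is 2) and 84 with DESeq2. Without the mouse block, ignoring the pairing, it was 0 (1140 at an unadjusted p under 0.05), with the mouse as a random block 2, and with signal over negative probe as covariate 0. It was 5 within CSS and 0 within ctrl mice, and 1 to 107 when leaving out 1 mouse. Of the 18 genes, edgeR, log2(signal + 10) and the filter kept 18, edgeR without mouse 1175 kept 16, DESeq2 15, 75th percentile scaling 8, quantile normalization 5 and the random block 2. Counts of 0 for the gaps between stress groups, with CA3 and with cortex stayed at 0 under each of their alternatives.

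Cdkn2a turned to -0.053 with edgeR, to -0.054 after filterByExpr and to -0.157 with edgeR without mouse 1175; leaving out 1 mouse gave -0.006 to 0.322. Snap25 turned to -0.007 with quantile normalization, and within ctrl mice Pvalb turned to 0.061 and Ptgds to -0.144. The log2 difference in total count was -0.068 to 0.047 when leaving out 1 mouse. For the gene median relative to the negative probe it was 0.066 to 0.114, and the exact permutation p rose above 0.05 without any 1 of 6 mice. Of 443 list medians 421 moved by less than the spread between mice. The causes were not tested. Dim genes were limited by the background: 2714 of 19962 genes averaged at or below the negative probe.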

Other observations

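Genes outside the fixed lists that edgeR called and limma did not were looked at after their values were seen. Robo1, the receptor of Slit guidance cues, was 73.7 ± 17.8 in high and 47.9 ± 17.0 in low AOIs (limma 0.69, adjusted p = 0.0527; edgeR adjusted p = 0.0102), lower only in mouse 1182. Kit, the stem cell factor receptor, was 57.8 ± 9.28 against 38.5 ± 17.98 (limma 0.72, adjusted p = 0.0576; edgeR adjusted p = 0.0473). Chl1, a close homologue of the adhesion protein L1, differed by 0.51 (edgeR adjusted p = 0.0222), and Chrd, the BMP antagonist chordin, by 0.44 (edgeR adjusted p = 0.0148). Kit, Chl1 and Chrd were lower in mouse 1182, and Kit and Chl1 also in CSS mouse 1152. Luzp2 differed by 0.53 (edgeR adjusted p = 0.00433).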
